A study of Mus musculus with 141 samples.

Results

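The libraries compared here were the inguinal white adipose tissue (iWAT) RNA-seq libraries with the most and the least transcript of *Cd79a*, which encodes a signalling chain of the B cell antigen receptor. The libraries were chosen by this one level. Within each sex, given by the suffix of the sample title, they were ranked by *Cd79a* in TPM (transcripts per 1000000), and the top 25% was set against the bottom 25%. This gave a top group of 34 libraries (16 female, 18 male) and a bottom group of 34 (16 female, 18 male) among 65 female and 73 male libraries ranked. The whole series has 3 more, mouse numbers 443, 886 and 1269, which the selection rule left out. All mice belonged to the Hybrid Mouse Diversity Panel, a collection of common inbred and recombinant inbred strains. All had been fed a diet rich in fat and sucrose (HF/HS) over 8 weeks, beginning when they were 8 weeks old, and no group on another diet was analysed here. Each library came from 1 mouse, and most strains gave 1 female and 1 male library. The ranked libraries came from 80 strains, and the 68 compared libraries from 54 strains. The top group held 16 BXD, 6 AXB or BXA, 3 BXH, 1 CXB and 8 other inbred libraries. The bottom group held 15, 3, 1, 3 and 12 of these. A male bottom library was of BXD24/TyJ-Cep290<rd16>/J, a line named for an allele of *Cep290*, and a male top library of BTBR T<+> tf/J.

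The inguinal fat pad of the mouse encloses a lymph node. A lymph node holds follicles of B cells, zones of T cells, and a stroma of its own. Fibroblastic reticular cells and follicular stromal cells secrete the chemokines that guide lymphocytes to these zones, and high endothelial venules carry the sugar-modified ligands through which lymphocytes enter from blood. Fat also contains resident immune cells, chiefly macrophages, so a lymph node is set apart from fat less by its leukocytes in general than by naive B and T cells together with this stroma. The promoter of *Cd79a*, from 250 bases before the start of the gene in RefSeq to 50 bases after it, is shown because this gene ranked the libraries. The start of the gene in GENCODE, whose coordinates are given with the levels, lies upstream of the RefSeq start and inside this window. The promoter of *Vpreb3*, another B cell gene, is shown beside it because it holds the octamer, a sequence bound by the POU factors of B cells. Both were taken from RefSeq (GRCm38.p6, plus strand, *Cd79a* at chr7:24897247-24897546 and *Vpreb3* at chr10:75948050-75948349), and the capitals mark AGGAAGTG, the letters of an ETS factor site, in the first and ATTTGCAT, the octamer on the opposite strand, in the second.
Cd79a: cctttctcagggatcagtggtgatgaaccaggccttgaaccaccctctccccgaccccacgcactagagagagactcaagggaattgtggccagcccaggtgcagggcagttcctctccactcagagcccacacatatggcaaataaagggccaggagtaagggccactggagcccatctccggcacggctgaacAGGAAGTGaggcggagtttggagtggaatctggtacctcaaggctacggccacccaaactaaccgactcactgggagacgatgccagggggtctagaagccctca
Vpreb3: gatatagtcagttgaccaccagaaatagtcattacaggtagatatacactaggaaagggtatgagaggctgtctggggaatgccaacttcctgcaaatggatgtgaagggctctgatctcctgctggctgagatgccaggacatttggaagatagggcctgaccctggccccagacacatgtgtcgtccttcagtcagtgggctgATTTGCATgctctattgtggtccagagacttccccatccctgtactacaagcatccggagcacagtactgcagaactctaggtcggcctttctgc
Searched on both strands, AGGAAGTG was found in 4.19% and the octamer in 1.75% of 27025 mouse promoters of this length, and each was found in 1 of the 13 promoters available for *Cd79a* and the B cell genes listed below, namely in the one printed above. The 2 sets of letters do not overlap.

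*Cd79a* (chromosome 7, 24897381 to 24902197, plus strand) did not vary evenly over the libraries. In the 16 female bottom libraries it ranged from 0.255 to 0.714 TPM with a median of 0.420, and in the 16 female top libraries from 108.8 to 271 TPM with a median of 159. In the 18 male bottom libraries it ranged from 0.284 to 0.777 TPM with a median of 0.576, and in the 18 male top libraries from 87.1 to 222 TPM with a median of 126.2. The widest step on the log scale lay between 12.3 and 33 TPM in females, with 33 libraries below it and 32 above, and between 3.47 and 14.8 TPM in males, with 42 below and 31 above. The libraries thus fell into a low and a high set, and the groups were cut inside these sets. The female library just inside the bottom group was BXD44/RwwJ at 0.714 TPM and the next was BXD12/TyJ at 0.778 TPM. At the top the female library of BXD74/RwwJ was inside at 108.8 TPM and that of BXD56/RwwJ outside at 89.03 TPM. For males these were BXD84/RwwJ at 0.777 TPM and AXB5/PgnJ at 0.807 TPM at the bottom, and C3H/HeJ at 87.1 TPM and BXD8/TyJ at 79.9 TPM at the top. These *Cd79a* values chose the libraries, so their difference between the groups was not tested.

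**Figure D1:**
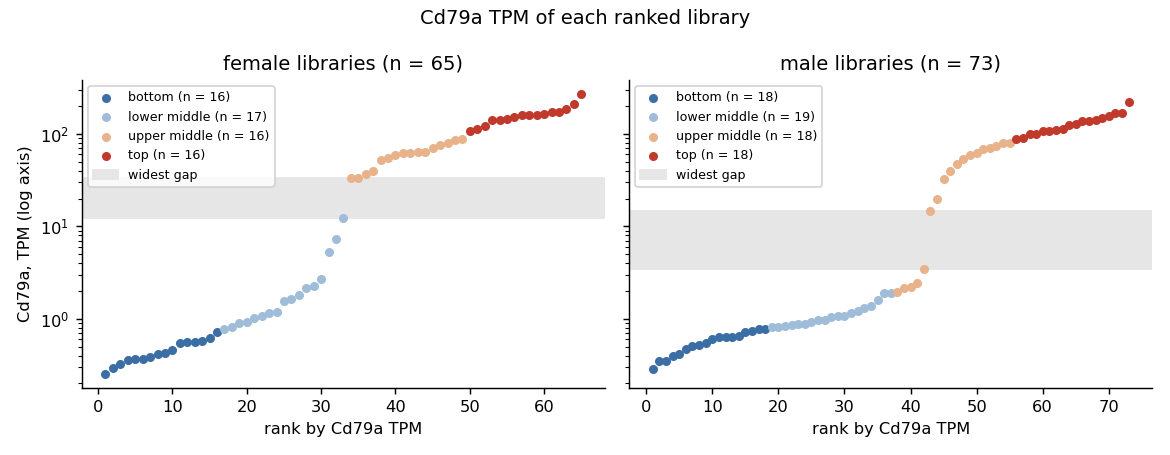
Each point is 1 library, placed by its rank within its sex (x axis) and its *Cd79a* level in TPM (y axis, log scale), and coloured by group, with the widest step between neighbouring libraries in grey. The bottom groups stay under 0.8 TPM, the top groups lie above 87 TPM, and the step separates 33 from 32 female and 42 from 31 male libraries.

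The estimated counts per compared library ranged from 20.8 to 78.6 M (M stands for 1000000). The median total was 29.4 M in the female top and 30.7 M in the female bottom group, and 29.6 and 32.2 M in the male groups (two-sided permutation test of the medians, 100000 resamples, Benjamini-Hochberg adjusted p = 0.186 and 0.102). The median share of counts from mitochondrially encoded genes was 7.56% against 9.41% in females and 8.23% against 8.60% in males (adjusted permutation p = 0.186 and 0.621). Differences were tested by the quasi-likelihood method of edgeR with sex in the model and TMM scaling, and a gene was called at a Benjamini-Hochberg adjusted p under 0.05 over the 16786 genes other than *Cd79a* that passed a filter on low counts. The filter asked for counts in a number of libraries set by the group size. A gene near 0 in the bottom libraries could thus pass through the top libraries alone, and only a rise could be found for it. Fold changes are given on the log2 scale, top against bottom, with their standard error (SE). Of these genes 5695 (33.9%) were higher and 6852 (40.8%) lower in the top group, so a call by itself says little about a list. Among called genes 1586 were more than 2-fold higher and 280 more than 2-fold lower. With library totals in place of TMM the median of all genes moved from -0.07 to 0.18, and 8324 genes (49.6%) were higher and 3653 (21.8%) lower, among them 442 that TMM scaling called lower and library totals called higher. In bulk tissue, fewer cells of a type and less RNA per cell cannot be told apart.

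B cell genes were far higher in the top libraries. Of the 20 B cell genes listed besides *Cd79a*, all 20 were tested and all 20 rose, with a median log2 fold change of 6.58, and for 19 of them the TPM ranges of the top and the bottom group did not overlap, against 590 of all genes (3.51%). No gene was without overlap in the lower direction (0%). *Cr2*, the complement receptor of B cells and follicular dendritic cells, ranged from 0.0429 to 0.684 TPM in the female bottom libraries and from 37.1 to 154 TPM in the female top libraries. In males it ranged from 0.0109 to 0.483 TPM and from 34.8 to 110 TPM. This was the largest change of any gene named by the rule, at 8.58 ± 0.19 (SE, edgeR adjusted p = 1.24e-49). *Fcmr*, the receptor for IgM, rose by 8.10 ± 0.16 and *Pax5*, the factor that commits cells to the B lineage, by 7.85 ± 0.15. The exception in size was *Ighm*, the IgM heavy chain, which rose by 0.88 ± 0.22 (edgeR adjusted p = 2.51e-04) and whose ranges overlapped. Its median was 268 TPM in the female and 548 TPM in the male bottom libraries, and 822 and 796 TPM in the top libraries. It was not called in males fitted alone (0.32, edgeR adjusted p = 0.158) nor between the middle groups (-0.03, adjusted p = 0.901).

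The B cell genes kept nearly fixed proportions among the top libraries. The level of *Cd79b*, the partner chain of *Cd79a*, was 0.963 to 1.22 times that of *Cd79a* in TPM over the 34 top libraries. *Cd3e*, a chain of the T cell receptor complex, varied more against *Cd79a*, from 0.261 to 1.49 times with a median of 0.704. In the bottom libraries *Cd3e* was 1.3 to 17.1 times the level of *Cd79a*, with a median of 3.89. These ratios share *Cd79a*, which ranked the libraries, and are a description.

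Signalling genes downstream of the B cell receptor, many of which serve other leukocytes too, had smaller changes. Of 18 listed, 17 rose and 1 fell, with a median of 1.76. *Ptpn6*, a phosphatase of blood cells, rose by 3.18 ± 0.14, *Pik3cd*, the leukocyte PI3 kinase, by 2.92 ± 0.12, and *Vav1*, an exchange factor, by 2.68 ± 0.15. *Cd81*, a tetraspanin present on most cells, fell by 0.53 on the log2 scale (SE 0.04). Antibody-secreting cells were represented by the plasma cell list, in which 9 of 12 genes rose and 2 fell. The 2 that fell were *Sdc1* (-0.66 ± 0.16) and *Xbp1* (-0.35 ± 0.06). *Tnfrsf17* was not called (-0.07), and *Prdm1* rose by 0.67 ± 0.14. *Mzb1*, a chaperone of antibody assembly, rose by 6.74 ± 0.27 and was higher in all 34 top libraries than in any bottom library. The heavy chains *Ighg1* (7.42 ± 0.68), *Ighg2c* (6.77 ± 0.70) and *Ighg2b* (6.04 ± 0.54) rose with wide errors. *Ighg2c* ranged from 0.0875 to 418 TPM in the male top libraries. The constant regions of IgG are similar in sequence and differ between strains, so the division of reads among them is uncertain. Of 7 germinal centre genes 4 rose and 3 fell, of which library totals called 4 higher and none lower. *Rgs13* (4.07 ± 0.39) rose from levels near 0. The 3 that fell were *Bcl6* (-0.36 ± 0.14), *S1pr2* (-0.30 ± 0.12) and *Fas* (-0.28 ± 0.07). Among males fitted alone 5 of the 7 could be tested, 2 being higher and 2 lower, with a median of -0.24. In the main fit 33.9% of all genes were higher and 40.8% lower.

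T cell genes rose together with the B cell genes. All 24 listed rose, with a median of 5.06, and 22 had ranges without overlap. Of all genes 33.9% were called higher, and 3.51% were higher without overlap. *Ccr7*, the receptor for the chemokines of the T cell zone, ranged from 0.118 to 2.26 TPM in the female bottom and from 26.4 to 75.6 TPM in the female top libraries. It ranged from 0.0903 to 1.38 TPM and from 25 to 62 TPM in males. Its log2 fold change was 6.14 ± 0.21. *Cd8b1*, a chain of the CD8 co-receptor, rose by 6.14 ± 0.32, and *Lef1*, a factor of naive T cells, by 6.04 ± 0.17. Genes of natural killer cells rose less, 8 of 9 being called with a median of 1.21, led by *Eomes* (3.31 ± 0.17), *Nkg7* (2.49 ± 0.18), *Prf1* (2.45 ± 0.15) and *Klrk1* (1.81 ± 0.20).

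**Figure D2:**
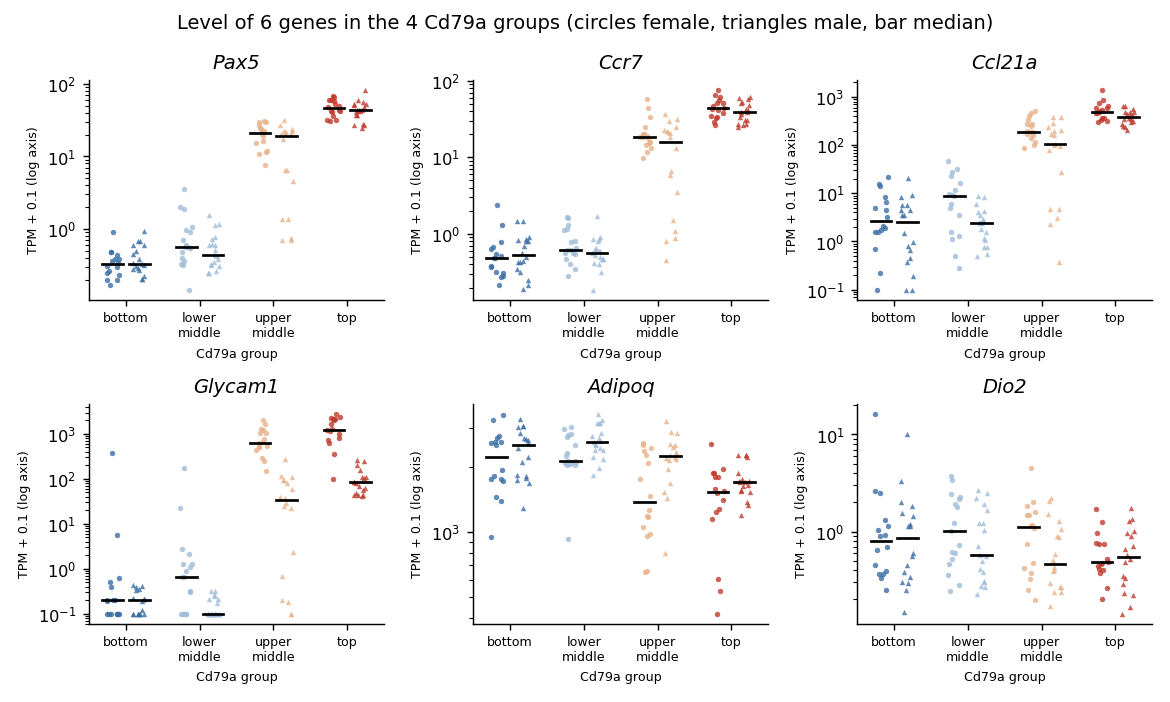
Points are libraries, with TPM plus 0.1 on a log axis, for the 4 *Cd79a* groups on the x axis, with circles for females, triangles for males and bars for the median of each. *Pax5*, *Ccr7* and *Ccl21a* separate top from bottom libraries fully, *Glycam1* is high in 1 female bottom library, *Adipoq* is lower at the top with overlap, and *Dio2* overlaps throughout.

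Genes of lymph node stroma were higher in the same libraries. Of 11 listed genes 10 could be tested and all 10 rose, with a median of 4.85, while *Ccl21b* had counts in 7 of the 68 libraries and was filtered out. Of all genes 33.9% were called higher. In females fitted alone 8 of the 10 were called higher, the exceptions being *Tnfsf11* (-1.08) and *Ackr4* (0.40), a receptor that takes up chemokines. *Ccl21a*, the chemokine of the T cell zone and of lymphatic vessels, ranged from 0 to 21.5 TPM in the female bottom libraries and from 306 to 1401 TPM in the female top libraries. In males the ranges were 0 to 20.4 TPM and 208 to 657 TPM, so all 34 top libraries exceeded all bottom libraries. It rose by 6.52 ± 0.37. *Ccl21a* has near-identical copies among which reads can be divided, so its absolute level is uncertain. *Cxcl13*, the chemokine of B cell follicles, rose by 5.49 ± 0.27, and *Chst4*, the sulfotransferase of high endothelial venules, by 7.31 ± 0.37 from 0 in most bottom libraries, a fitted value that depends on the prior count. *Chst4* passed the filter through the top libraries, so only a rise could be found for it. *Glycam1*, a sugar-carrying ligand made by high endothelial venules and also by mammary epithelium, was called higher in both sexes fitted alone (5.96 in females and 9.85 in males), with no interaction of group and sex called (edgeR adjusted p = 0.223). In males it ranged from 0 to 0.333 TPM at the bottom and from 42.4 to 266 TPM at the top. In females it ranged from 0 to 373 TPM at the bottom and from 99.7 to 2797 TPM at the top, so the ranges overlapped. Its log2 fold change over both sexes was 6.89 ± 0.65. *Grem1*, a secreted BMP antagonist, was outside the lists and was among the 10 largest changes, at 8.19 ± 0.31, with at most 0.191 TPM in any bottom library and at least 1.54 TPM in any top library. The others of these 10 outside the lists were *Ccr6*, a chemokine receptor of B cells (7.64 ± 0.22), the IgG heavy chain *Ighg3* (7.65 ± 0.42), *Tspan10*, a tetraspanin (7.58 ± 0.25), and the antibody variable segments *Igkv3-4* (7.80 ± 0.49) and *Ighv14-4* (7.73 ± 0.66), whose reads may be shared with similar segments.

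Ligands and receptors that organise lymphoid tissue moved both ways. Of 21 listed genes 16 rose and 2 fell, with a median of 1.44. Here and for the endothelium lists below, 33.9% of all genes were called higher and 40.8% lower. Receptors and ligands of lymphocytes rose, namely *Cxcr5*, the receptor for *Cxcl13* (7.39 ± 0.15), *Tnfrsf13c*, the BAFF receptor (6.04 ± 0.13), and *Ltb*, lymphotoxin beta (5.45 ± 0.19). The 2 that fell were *Ltbr*, the receptor for lymphotoxin (-0.68 ± 0.05), and *Tnfrsf1a*, the TNF receptor (-0.55 ± 0.05), both widely expressed. The lymphatic endothelium list was mixed, 3 of 6 being higher and 1 lower, with a median of 0.43 (0.06 in females alone). *Prox1*, the master factor of these vessels, was at 2.58 ± 0.17, *Mmrn1* at 2.08 ± 0.29 and *Reln* at 0.83 ± 0.33. *Pdpn* fell (-0.30 ± 0.13), its counts being identical to those of a second gene identifier. *Lyve1* (0.03) and *Flt4* (-0.12) were not called. Of 6 blood endothelium genes 0 were higher and 5 lower, among them *Vwf* (-0.62 ± 0.14), *Cdh5* (-0.60 ± 0.10), *Tek* (-0.57 ± 0.09) and *Emcn* (-0.54 ± 0.06). Library totals called 1 of the 6 higher and 4 lower.

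Antigen-presenting cells were mixed. For the counts below, 33.9% of all genes were called higher and 40.8% lower. All 10 genes of MHC class II presentation rose, with a median of 1.56. Those with the largest changes were *H2-Ob* (6.11 ± 0.13) and *H2-Oa* (5.91 ± 0.17), the chains of H2-O, which B cells make, followed by *H2-DMb2* (4.17 ± 0.20) and the transactivator *Ciita* (2.77 ± 0.13). Of 10 dendritic cell genes 7 rose, with *Ccl22* (4.73 ± 0.26), *Flt3* (3.55 ± 0.18), *Siglech* (2.65 ± 0.18) and *Xcr1* (2.54 ± 0.19) the largest. Of 12 macrophage genes 1 rose and 4 fell, with a median of -0.17 against -0.07 for all genes. The median was 0.27 in females, with 1 higher and 2 lower, and -0.60 in males, with none higher and 7 lower, and library totals called 2 lower. The summed TPM of the list had a median of 677 in the female bottom and 1409 in the female top group, and of 903 and 1226 in males. *Lyz2*, lysozyme, rose by 0.97 ± 0.21. *Trem2*, a lipid receptor of macrophages (-1.57 ± 0.35), *Cd163* (-0.92 ± 0.17), *Adgre1* (-0.59 ± 0.24) and *Mrc1* (-0.55 ± 0.15) fell, the last 2 not being called with library totals. *Trem2* ranged from 0.765 to 76.9 TPM in male bottom and from 0.318 to 19.7 TPM in male top libraries, and its counts were identical to those of a second gene identifier, so its level was divided between them. Of 2 neutrophil genes tested 1 rose, *S100a9* (1.90 ± 0.35), and of 5 mast cell genes 1 rose. Cell cycle genes were higher in 15 of 18 cases, with a median of 0.64, led by the replication genes *Mcm5* (1.18 ± 0.14), *Mcm2* (1.17 ± 0.11) and *Mcm6* (1.01 ± 0.19) and by *Top2a* (0.95 ± 0.20). Of 9 interferon-response genes 6 rose (3 of 9 in males fitted alone), among them *Mx1* (2.09 ± 0.18), *Usp18* (1.25 ± 0.17) and *Irf7* (0.76 ± 0.16).

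**Figure D3:**
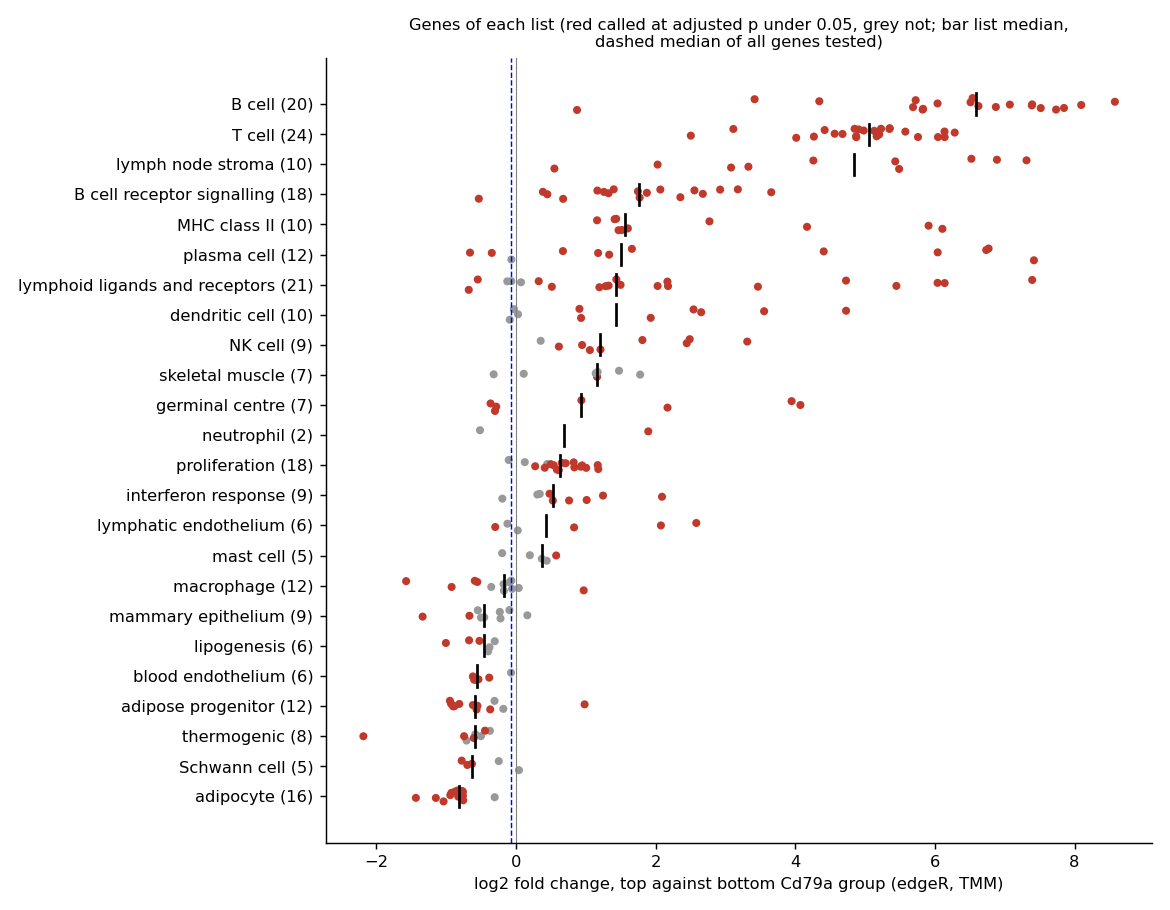
Each point is a gene of a list (y axis, number tested in parentheses) placed by its log2 fold change between the top and the bottom group, red where called and grey where not, with a bar for the list median and a dashed line for the median of all genes. B cell, T cell and lymph node stroma genes have medians of 6.58, 5.06 and 4.85, and the adipocyte list lies lowest at -0.81.

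Adipocyte genes were lower in the top libraries. Of 16 listed 15 fell and 0 rose, with a median of -0.81 under TMM and of -0.54 under library totals, which also called 15 lower. The adipokine *Adipoq* (adiponectin) had a median of 2215 TPM in the female bottom and 1528 TPM in the female top group, and of 2516 and 1698 TPM in males. The ranges overlapped in both sexes. Its log2 fold change was -0.77 ± 0.10 (edgeR adjusted p = 1.40e-09), the same as that of *Plin1*, the coat protein of the lipid droplet (-0.77 ± 0.10). *Lep*, leptin, fell most (-1.43 ± 0.27), followed by *Dgat2*, which makes triglyceride (-1.15 ± 0.14), *Cidec*, which enlarges lipid droplets (-1.04 ± 0.13), and *Fabp4*, the fatty acid carrier (-0.94 ± 0.11). Of 6 lipogenic genes 3 fell, with *Scd1* at -1.0 ± 0.19, and of 8 thermogenic genes 4 fell, with *Prdm16* at -0.60 ± 0.12. Both counts were near the 40.8% of all genes called lower. Library totals called 2 genes lower in each list, and the thermogenic count was 6 in females and 2 in males. Of 12 progenitor and matrix genes 9 fell, including *Pi16* (-0.94 ± 0.24), *Lum* (-0.93 ± 0.15) and *Col3a1* (-0.90 ± 0.16), and 1 rose, *Dpp4* (0.98 ± 0.16), a marker of adipose progenitors that lymphocytes also carry. Of 5 Schwann cell genes 3 were called lower under TMM, but none was lower and 1 was higher under library totals. For scale, the 1587 genes more than 2-fold higher, *Cd79a* included, held a median of 6.07% of all TPM in the top and 1.27% in the bottom libraries. These genes were picked by their rise in the same libraries, so the direction was fixed by the choice. Genes with smaller rises are not in this share.

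Genes of 2 neighbouring tissues were checked in the same libraries. Of 9 mammary epithelial genes 2 were lower and none higher, and their summed level was 98.1 to 4572 TPM in the female bottom and 237 to 1576 TPM in the female top libraries, against at most 56.9 TPM in any male library compared. Of 7 skeletal muscle genes tested 1 was higher, with a median log2 fold change of 1.16, and 5 were higher under library totals and 5 in females alone. Their summed level reached 1239 TPM in a male bottom and 3470 TPM in a male top library, with medians between 25.2 and 31.9 TPM in the 4 groups. In models with the mean level of either list as a covariate 5747 and 5713 genes were higher. The part of these tissues in single results was not tested.

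The 10 lowest fold changes among called genes with a mean of at least 1 CPM (count per 1000000) were those of *Vcp-rs*, *Cd1d2*, *Gdpd3*, *Dio2*, *Hspb7*, *Tph2*, *Slc5a1*, *Dclk3*, *Hal* and *Mup2*, from -2.63 ± 0.96 to -1.69 ± 0.55. In none of them were the 2 groups without overlap. The direction of the lowest, *Vcp-rs*, was not stable, being 0.75 and called higher by DESeq2. *Gdpd3* had a median of 6.75 TPM in the female bottom and 6.6 TPM in the female top libraries, but reached 228 and 11.9 TPM, and its log2 fold change was -2.43 ± 0.49, so the change lay in the highest bottom libraries and not in the medians. *Cd1d2*, a lipid-presenting molecule, reached 53.5 TPM in the female bottom and 1.77 TPM in the female top group, and its log2 fold change was -2.57 ± 0.55. *Dio2*, the deiodinase that activates thyroid hormone (-2.18 ± 0.44), reached 16.2 TPM in the female bottom and 1.62 TPM in the female top group from medians of 0.695 and 0.384 TPM. Its male medians were 0.767 and 0.445 TPM. *Dclk3* (-1.78 ± 0.23) and *Tph2*, an enzyme of serotonin synthesis (-1.84 ± 0.51), also had lower medians at the top in both sexes.

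To compare libraries of the same strain, the 58 strains with a ranked library of each sex were fitted with strain as a term, all their libraries being set apart by the widest step. With this term only strains with libraries on opposite sides inform the contrast, namely 14 with the female and 7 with the male above. Within each of these strains the sides are also a female and a male mouse. The step was that of *Cd79a*, found after its values were seen, and the libraries overlap with those of the main comparison. This added comparison called 5508 genes (32.7%) higher and 6155 (36.5%) lower. Every listed B cell, T cell and lymph node stroma gene tested stayed higher, and 15 of 16 adipocyte genes stayed lower. Of the lowest genes *Hspb7* (-1.12, adjusted p = 0.00206 by edgeR), *Tph2* (-2.30) and *Dclk3* (-1.05) remained lower, while *Vcp-rs* (0.40), *Cd1d2* (0.35), *Gdpd3* (0.07), *Dio2* (-0.08), *Slc5a1* (-0.25), *Hal* (-0.03) and *Mup2* (0.21) did not pass the test. *Trem2* stayed lower (-0.86), and *S100a9* did not pass (0.05). Of the 8 thermogenic genes 1 was lower. The upper middle group, compared with the lower middle group, gave libraries outside the main comparison, also cut by rank of *Cd79a*. The male upper middle group reached down to 1.95 TPM, below the male step, so it mixed libraries of the low and the high set. In the comparison of the middle groups 4641 genes (27.9%) were higher and 4671 (28.1%) lower. Among them 19 of 20 B cell, 24 of 24 T cell and 9 of 9 tested stroma genes were higher, and 13 of 16 adipocyte genes lower. Of the 8 thermogenic genes 1 was lower there, with a list median of 0.28. In that comparison 7 of 9 mammary genes were higher and 7 of 7 muscle genes lower, so those tissues differed between the middle groups.

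The sexes gave largely the same direction when fitted apart. Among females 5192 genes (31%) were higher and 5484 (32.7%) lower, and among males 4819 (29.6%) were higher and 5849 (36%) lower. Of the genes higher in females 80.8% were also called higher in males, which was 87.1% of the male calls, and 3 were called lower. An interaction of group and sex was called for 208 genes, of which 69 (0.411%) had the larger value in females and the rest (0.828%) the larger value in males. By limma-voom these numbers were 4 and 78, so the calls of a larger value in females depend on the method. Every gene of the rest had a higher median TPM in the female than in the male bottom libraries, and 92.1% of them had a positive fold change in males fitted alone. The genes with the strongest difference, chosen after their values were seen, included *Sidt1*, *Pkp3* (plakophilin), *Dsg2* (a desmosomal cadherin) and *Cd24a*, of which *Pkp3* and *Dsg2* encode parts of the junctions between epithelial cells. *Pkp3* ranged from 0.0950 to 1.13 TPM in male bottom and from 5.33 to 13.8 TPM in male top libraries, a change of 3.8 ± 0.19 on the log2 scale. In females it ranged from 1.55 to 27.2 TPM and from 9.87 to 26.4 TPM, a change of 0.44 ± 0.27. *Cd24a* had a median of 89.2 TPM in the female bottom and 9.75 TPM in the male bottom group.

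Of the listed genes 8 were called for the interaction. *Tnfsf11*, the cytokine RANKL that lymph node organisers and mammary epithelium both use, had the largest difference. It ranged from 0 to 0.202 TPM in male bottom and from 2.02 to 6.50 TPM in male top libraries (5.79 ± 0.34). In females it ranged from 0 to 130 TPM at the bottom and from 1.69 to 12.6 TPM at the top (-1.08 ± 0.85, not called), so the highest value was in a female bottom library. Female libraries of the upper middle group reached 49.3 TPM. Its combined log2 fold change, 2.03 ± 0.83, therefore describes neither sex. *Tcf7*, a T cell factor, rose more in males (6.54 ± 0.25) than in females (4.98 ± 0.29). By edgeR *Cxcl13*, *Cd22*, *Ighd*, *Blnk* and *Rasgrp3* rose more in females. *Lyz2* had a log2 fold change of 1.73 in females and of 0.34, not called, in males. *Cxcl13* changed by 6.48 ± 0.36 in females and by 4.72 ± 0.33 in males, with bottom medians of 1.38 and 3.70 TPM.

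**Figure D4:**
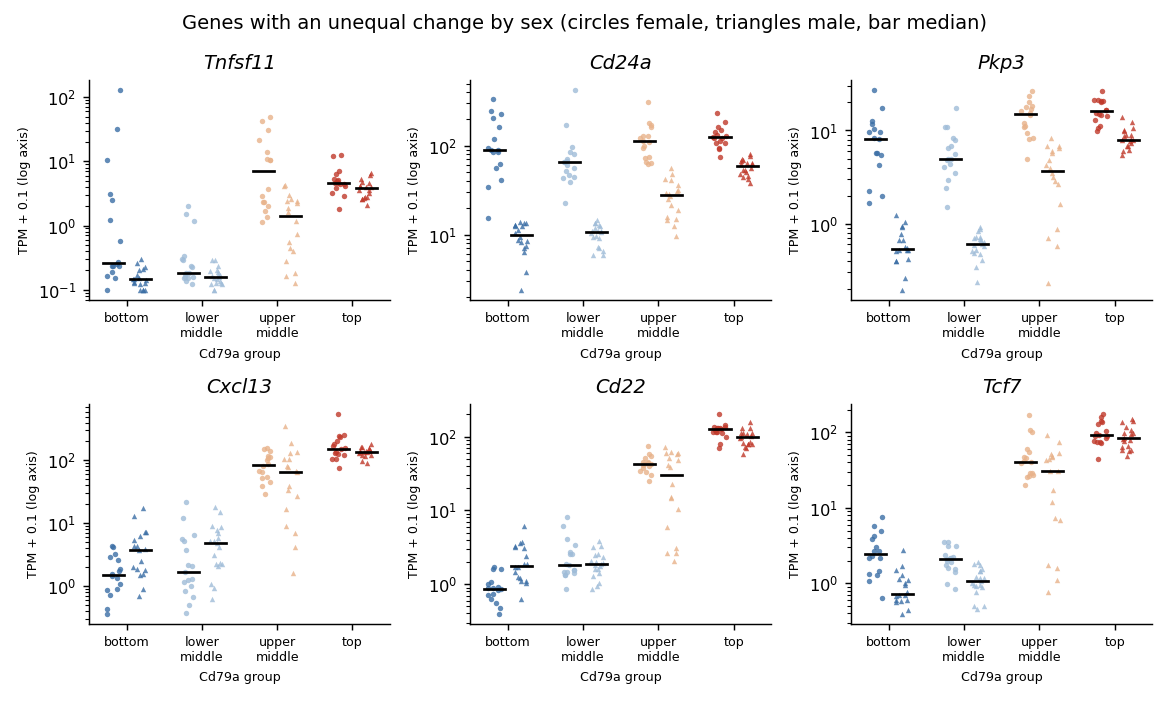
Points are libraries, with TPM plus 0.1 on a log axis over the 4 *Cd79a* groups, circles for females, triangles for males and bars for medians. For *Tnfsf11*, *Cd24a* and *Pkp3* some female bottom libraries already reach the top level, while *Cxcl13*, *Cd22* and *Tcf7* rise in both sexes from unequal bottom levels.

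The 2 mice of a strain often differed. Of the 58 strains with both sexes, 17 had both libraries above the step, 20 had both below, 14 had only the female and 7 only the male above. The sides matched in 37 strains (63.8%), with p = 0.0342 by Fisher's exact test and p = 0.05 by a two-sided permutation test of the pairs. The step was found after the values were seen, so both p-values are a description. Both libraries were in the top group in 6 strains and both in the bottom group in 5, while 2 strains had a top female and a bottom male and 1 the reverse. Because *Cd79a* formed a low and a high set, no correlation is given for it, nor for *Cd3e* and *Ccl21a*. *Cd3e* had its widest step between 33 and 32 female and between 40 and 33 male libraries. *Ccl21a* had its widest step between 43 and 30 male libraries, while in females the widest set 1 library at 0 TPM apart and the next, from 46.7 to 87.6 TPM, lay between 33 and 32. Among other genes over these strains, *Csf1r*, the macrophage growth factor receptor, correlated between the sexes on log2(TPM + 0.1) (Pearson r = 0.435, Spearman rho = 0.447, adjusted permutation p = 0.00228 and 0.0015), and r was 0.495 over 56 strains without the 2 farthest. *Adipoq* did not pass the test (r = 0.207, rho = 0.19, adjusted permutation p = 0.176 and 0.225), nor did *Krt8*, a keratin of mammary epithelium (r = -0.182, rho = -0.108, adjusted permutation p = 0.176 and 0.426).

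**Figure D5:**
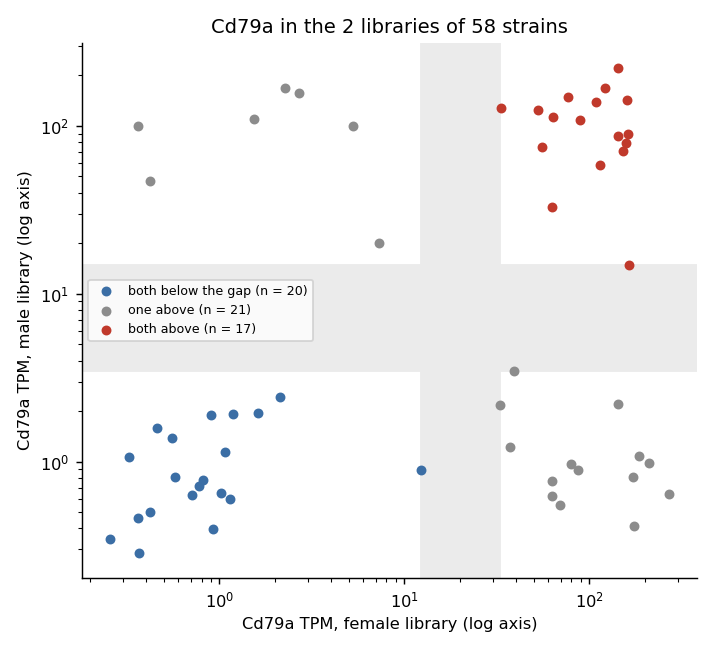
Each point is a strain, with *Cd79a* in TPM in its female library (x axis) and its male library (y axis), both on log axes, the grey bands marking the widest step of each sex. There are 17 strains with both libraries above, 20 with both below and 21 with 1 above.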

How the data were processed

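The authors sequenced iWAT RNA as stranded paired-end libraries and quantified them with kallisto 0.46.1 on the mouse transcriptome (mm10 is named in the submitters' notes), and deposited per gene a table of estimated counts and a table of TPM. The deposited TPM values were used for ranking and levels, and the estimated counts, which need not be whole, were rounded and tested. Symbols and coordinates came from GENCODE M21 (GRCm38). Genes were kept with edgeR's filterByExpr, scaled by TMM and fitted with quasi-likelihood (edgeR) with sex and group as terms, with Benjamini-Hochberg adjustment. Alternatives used DESeq2, limma and limma-voom. The rows of 377 tested gene identifiers held the same counts as another row. The named genes were *Cd79a*, up to 4 called genes per list by size of change, the 10 largest and 10 smallest changes among called genes with a mean of at least 1 CPM and no clone-style symbol, listed genes with an interaction, and *Ccl21a*, *Ccl21b*, *Cxcl13*, *Glycam1*, *Adipoq* and *Plin1*. Some listed genes outside this rule, such as *Ighm*, were named after their values were seen, and a few genes the rule would name are not reported here. Groups, lists and tests were chosen with earlier results of these data known. Depth of 20.8 to 78.6 M (1000000) estimated counts per compared library limits low genes. The fit was also run on simulated counts in which few genes changed, by smaller amounts balanced between higher and lower. These data differ in both respects, so that run cannot show how the scaling and the calls behave here. Mice of a strain are related, and p-values measure the spread between mice of all strains. The main fit had no term for strain, so the 68 libraries of 54 strains entered it as independent. With strain as a random effect in limma-voom the correlation within strains was 0.4, and 5831 genes were higher and 6695 lower.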

Additional observations from a re-analysis of the deposited data

Results flagged for a closer look

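The change between the groups differed between the sexes by the edgeR interaction test for 208 genes (adjusted p under 0.05), 69 with the larger value in females and the rest with the larger value in males. Among the genes named in the text the difference in log2 fold change, female minus male, was 1.74 for *Cxcl13*, 1.38 for *Lyz2*, 1.39 for *Cd22*, 1.03 for *Ighd*, 1.3 for *Blnk* and 0.57 for *Rasgrp3*. The difference was -6.89 for *Tnfsf11*, -1.58 for *Tcf7*, -3.66 for *Sidt1*, -3.39 for *Pkp3*, -2.54 for *Cd24a*, -3.55 for *Dsg2* and -2.28 for *Gata3*. The mammary epithelial genes summed to 98.1 to 4572 TPM in female bottom libraries and to at most 35.4 TPM in male bottom libraries, and their part in these differences was not tested.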

How the results depend on the processing

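Among 95 of the named genes, 71 kept direction and call under every one of the 27 alternatives that could give a value. The call was lost under at least 1 for 24, and the sign changed under at least 1 for 9. With at least 10 counts in every library only 52 of the 95 had a value. Without genes of log2 fold change over 1, 37 stayed the same, 1 lost its call and the rest had no value. *Cr2*, *Fcmr* and *Pax5* had no value under either, so these 2 alternatives did not test them. The count of lower genes moved from 6852 to 3653 with library totals, to 3090 with limma on log2(TPM + 1) and to 3049 on log2(TPM + 0.1). The count of higher genes stayed within 1.5 times of 5695 in every alternative. Genes with an interaction went from 208 to 56 with at least 10 counts in every library and to 82 with limma-voom, of which 4 had the larger value in females. *Vcp-rs* turned to 0.046 with a strain family term, 1.71 when ranked by *Cd3e*, 0.38 with limma-voom, 0.51 with strain as a random effect, 0.40 on log2(TPM + 0.1), 0.75 with DESeq2 (called higher) and 0.40 in matched strains. In matched strains *Cd1d2* was 0.35, *Gdpd3* 0.0697 and *Mup2* 0.21. In the middle groups *Ighm* was -0.0315, *Cd1d2* 0.81, *Gdpd3* 0.81 and *Hal* 0.19. In females alone *Tnfsf11* was -1.08, *Cd24a* -0.0844 and *Gata3* -0.28. Without a term for sex *Tnfsf11* was -0.24 and *Gata3* -0.10. The cause was not tested. The planned correlations of *Cd79a*, *Cd3e* and *Ccl21a* between the sexes and their alternatives were not run, since their values fell into a low and a high set, apart from 1 female library without *Ccl21a*. No paired analysis was possible by replicate number, because each mouse has its own and the groups share none. Libraries were matched by strain instead, in the comparison with a strain term (5508 higher and 6155 lower). Mouse-level replicates within a strain and sex are lacking.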

Other observations

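*Ighm* was the B cell gene with the least difference between groups. Its median was 405 TPM in the bottom, 563 in the lower middle, 492 in the upper middle and 812 in the top group. In the female bottom libraries *Ighm* ranged from 16.4 to 674 TPM.

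The ratio of *Cd8a* to *Cd4* in TPM had a median of 0.772 in the bottom and 1.05 in the top libraries, with a range of 0.171 to 2.75 and of 0.477 to 2.17. The ratio of *Ccl21a* to *Cd79a* ranged from 1.36 to 5.40 in the top libraries.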
